A study of Mus musculus with 6 samples.

Results

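RNA-seq of mouse NSPCs was examined for 10 genes that act in apoptosis and are known as targets or partners of p53: Bax, Bbc3, Pmaip1, Fas, Tnfrsf10b, Perp, Aen, Apaf1, Trp53inp1 and Ei24. The genes were chosen by name, with earlier results of these data known, and found by their NCBI gene identifiers. All 10 were among the 17254 genes listed in at least 1 library. The 6 libraries came from NSPCs cultured for 48 h in N2 media with EGF and bFGF. They comprised 2 mock-treated control libraries, 2 libraries treated with 5 µM paraquat (PQ), which cycles with oxygen and produces superoxide, and 2 treated with 5 mM N-acetylcysteine (NAC), a thiol antioxidant. The study's methods describe an immortalized Ink/Arf-/- culture of neonatal subventricular origin that mixes neural stem cells with neuronal and oligodendroglial precursors, so all 3 groups are described with that deletion. The labels give the genotype, as Ink/Ark knockout, and the C57BL/6 strain for control replicate 1 and PQ replicate 1 alone, and the PQ dose for PQ replicate 1 alone. The labels also split the libraries by protocol. Control replicate 1 and PQ replicate 1 were extracted on columns and prepared by Illumina protocols, whereas control replicate 2, PQ replicate 2 and both NAC libraries were extracted with TRIzol and sequenced on BGISEQ-500. Replicate numbers follow the order of deposition. Nothing in the labels says that replicates were separate cultures, so p-values measure only the spread between these libraries, which may be technical.

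The p53 protein is a transcription factor that accumulates after DNA damage and other stress and raises genes of cell cycle arrest, repair and death. Its death genes act at 2 gates. At the mitochondrion, BH3-only proteins release BAX, which opens the outer membrane, and the escaping cytochrome c assembles APAF1 into the caspase-activating apoptosome. At the cell surface, death receptors such as FAS recruit caspases through the adaptor FADD. The Cdkn2a locus, deleted in Ink/Arf-/- cells, encodes INK4A and also ARF, an inhibitor of the p53 ligase MDM2. In neural progenitors, p53 is known to restrain proliferation and to drive death after genotoxic damage.

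Each library held between 9680436 and 10698241 expected counts, estimates that can be fractional because reads shared by several genes are divided among them. Counts were compared with edgeR's quasi-likelihood test over the 11717 genes with a mean FPKM (deposited fragments per kilobase, scaled to library size) of at least 1, and a gene was called at a Benjamini-Hochberg adjusted p under 0.05. Of the 10 genes, 9 passed this filter, each with a mean FPKM above 1 in all 3 groups. Perp, a membrane protein of desmosomes linked to p53-dependent death, did not. Its expected counts were 2 and 0 in control, 3 and 2 in PQ, and 1 and 2 in NAC. At most 3 counts in any library leave a difference in Perp undetectable at this depth, and no fold is given.

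At the start, the locus described as deleted was read in every group. Cdkn2a had between 120 and 162 expected counts in each of the 6 libraries, and its log2 fold change was -0.29 in PQ (adjusted p = 0.23 by edgeR) and -0.29 in NAC (adjusted p = 0.24 by edgeR). The PQ value was -0.17 without PQ replicate 1 and -0.19 without control replicate 2, and the NAC value -0.19 without control replicate 2. Counts per gene do not show which exons the reads came from, so they do not test the deletion. All 9 progenitor markers read (Nes, Sox2, Vim, Fabp7, Slc1a3, Egfr, Olig2, Msi1 and Notch1) passed the filter, with Vim as the most abundant at 4066 and 4305 CPM (counts scaled to library size by edgeR's TMM method) in control.

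PQ raised 8 of the 9 tested genes against control and lowered 0 by edgeR, beside 9.76% of all tested genes called higher and 9.45% called lower. DESeq2 and limma each called 7 higher and 0 lower, 0 were lower at an unadjusted edgeR p under 0.05, and all 9 had positive values in every alternative. Fas rose most, followed by Trp53inp1 and Pmaip1. The third place of Pmaip1 was not stable. By limma Pmaip1 had 0.68, below Bax (0.76) and Aen (0.75), and without control replicate 2 it had 0.76, below Aen (0.83). Bax, Aen, Tnfrsf10b and Ei24 rose by similar amounts, Apaf1 rose least, and Bbc3 was not called. The 9 genes had a median log2 fold change of 0.74, against -0.0013 over all tested genes. Because the genes were chosen with earlier results known, these contrasts with all genes describe the set and do not test it. In 8 of the 9 genes both PQ libraries lay above both control libraries, a pattern held by 29.2% of all tested genes. Fewer cells of a type and less RNA per cell cannot be told apart in bulk libraries such as these.

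**Figure D1:**
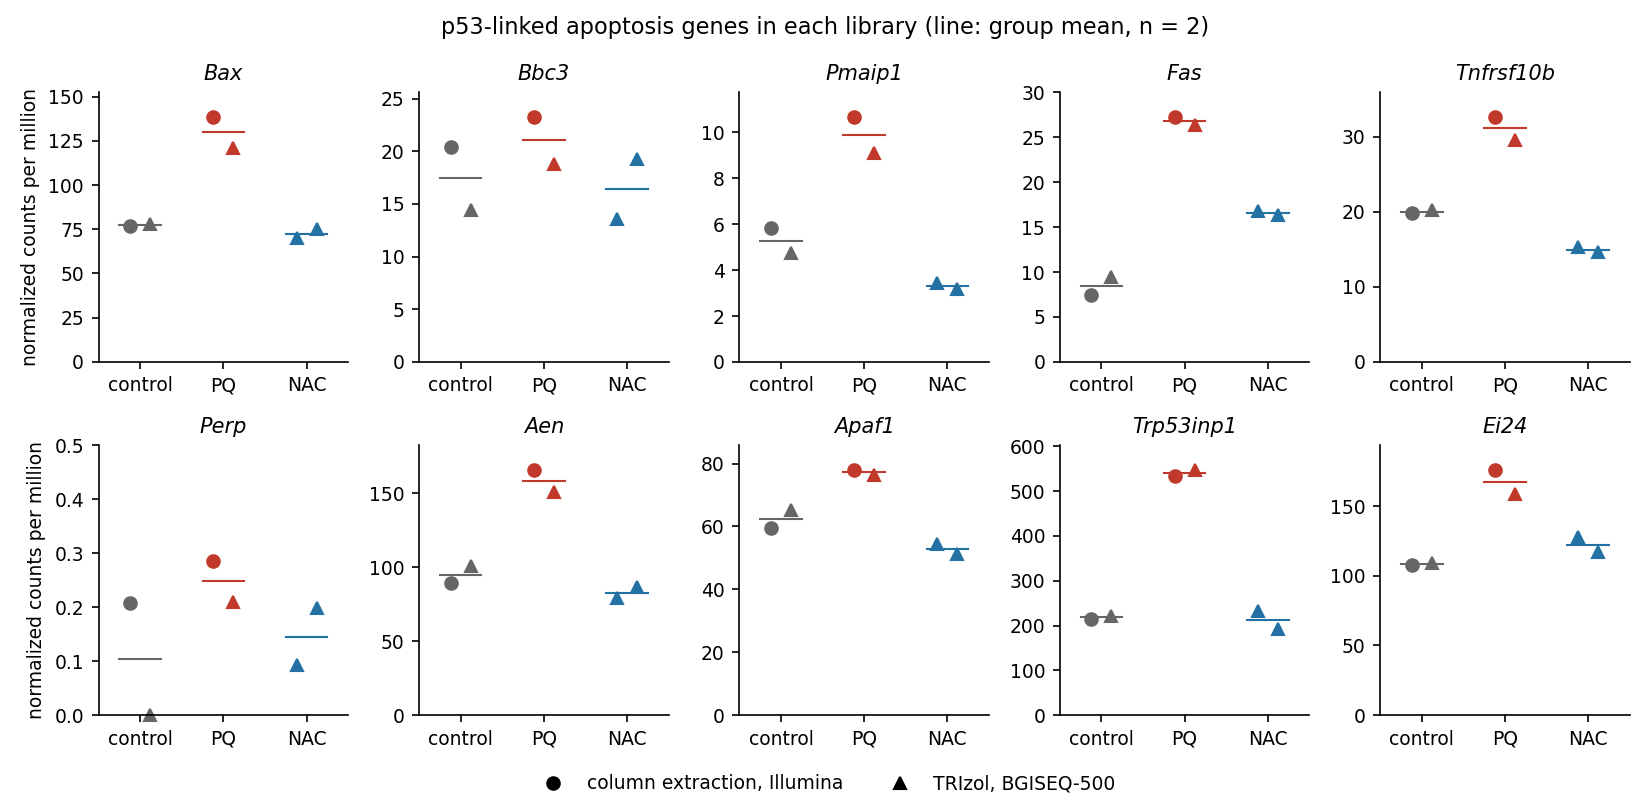
Normalized CPM (y axis, from 0, with its own scale in each panel) of the 10 genes in control, PQ and NAC libraries (x axis). Each point is 1 library, its shape gives the labelled protocol, and each line is the mean of 2 libraries; both PQ libraries lie above both control libraries for 8 of the 9 tested genes, Bbc3 overlaps between groups, and Perp has at most 3 counts.

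Among the mitochondrial genes, Bax (NCBI gene 12028), the effector that permeabilizes the outer membrane, had 738 and 773 expected counts in control, 1453 and 1156 in PQ, and 754 and 758 in NAC. Both PQ libraries were well above the other 4, which lay close together. Bax averaged 77.5 ± 0.91 CPM in control, 130 ± 13 in PQ and 72.6 ± 3.7 in NAC (n = 2, mean ± SD). The log2 fold change in PQ was 0.74 (SE, the standard error, 0.10; edgeR adjusted p = 6.1e-05), a 1.68-fold rise. In NAC it was -0.09 (adjusted p = 0.58 by edgeR), and -0.043 without NAC replicate 1 and -0.15 without NAC replicate 2.

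BH3-only proteins neutralize the anti-death members of the BCL-2 family, and the set holds a pair of their genes. Pmaip1 (NCBI gene 58801), which encodes NOXA, was a gene of low abundance with 56.24 and 47 expected counts in control, 112.45 and 87 in PQ, and 37 and 32.12 in NAC. The 3 groups did not overlap, with PQ highest and NAC lowest. Its log2 fold change was 0.91 in PQ (SE 0.21, edgeR adjusted p = 0.0057) and -0.67 in NAC (SE 0.25, edgeR adjusted p = 0.069). The value in NAC missed the threshold in 10 of 11 alternatives, with an adjusted p of up to 0.34 and -0.38 by limma in place of -0.67, and passed it only with no filter on low values, at 0.048. Bbc3 (NCBI gene 170770), which encodes PUMA, had 195.54 and 143 expected counts in control, 244 and 180 in PQ, and 146 and 193.81 in NAC. Each group of Bbc3 values overlapped the next, since the libraries within a group were as far apart as the groups were. Its log2 fold change in PQ was 0.28 (SE 0.19, edgeR adjusted p = 0.35, from 0.074 to 0.90 over its alternatives). The value of Bbc3 was 0.55 without control replicate 1, 0.048 without control replicate 2, 0.11 without PQ replicate 1 and 0.42 without PQ replicate 2. This does not show that Bbc3 was level. Fractional counts of Pmaip1 in 3 libraries and Bbc3 in 2 come from reads divided with other genes, so both values carry that uncertainty.

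Apaf1 (NCBI gene 11783), the scaffold of the apoptosome, had 572 and 645 expected counts in control, 817 and 731 in PQ, and 585 and 515 in NAC. After scaling, both PQ libraries were higher than both control libraries by a small margin. The log2 fold change in PQ was 0.31 (SE 0.10, edgeR adjusted p = 0.039), a 1.24-fold difference. The call was lost without control replicate 1 (adjusted p = 0.19), without PQ replicate 1 (adjusted p = 0.21) and without PQ replicate 2 (adjusted p = 0.12), all by edgeR, and with the labelled protocol as a replicate block (adjusted p = 0.057 by edgeR), by DESeq2 (adjusted p = 0.086) and by limma on FPKM (adjusted p = 0.073). The rise of Apaf1 was thus the least stable of the 8 calls under these alternatives.

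Among the death receptors, Fas (NCBI gene 14102), the receptor of FAS ligand, had 72 and 94 expected counts in control, 286 and 252 in PQ, and 181 and 165 in NAC. All 3 groups were apart, with control lowest, NAC between and PQ highest. Fas averaged 8.50 ± 1.4 CPM in control, 26.8 ± 0.70 in PQ and 16.6 ± 0.31 in NAC (n = 2, mean ± SD). The log2 fold change was 1.66 in PQ (SE 0.16, edgeR adjusted p = 1.6e-06) and 0.96 in NAC (SE 0.17, edgeR adjusted p = 0.00037). Fas was therefore raised 3.15-fold by PQ and 1.95-fold by NAC, and it was also higher in PQ than in NAC by 0.69 on the log2 scale (adjusted p = 0.0012 by edgeR). By rank among all 11717 genes, the Fas change in PQ was number 34 from the top.

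Tnfrsf10b (NCBI gene 21933), the mouse receptor for the death ligand TRAIL, had 189.71 and 199.58 expected counts in control, 342.41 and 283 in PQ, and 164.71 and 146.72 in NAC. Its groups were also apart, but in the order seen for Pmaip1, with NAC below control. Its counts were fractional in 5 of 6 libraries, so its values carry the uncertainty of divided reads as well. The log2 fold change was 0.64 in PQ (SE 0.13, edgeR adjusted p = 0.0025) and -0.42 in NAC (SE 0.14, edgeR adjusted p = 0.049). The fall in NAC was called in 2 of 11 alternatives, with an adjusted p from 0.048 to 0.20 and a log2 fold change from -0.45 to -0.31. It was lost when either NAC library (adjusted p = 0.14 without replicate 1 and 0.20 without replicate 2, by edgeR) or either control library (adjusted p = 0.095 and 0.12 by edgeR) was left out, and with the replicate block (adjusted p = 0.14 by edgeR).

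The 3 remaining genes act beside these gates. Trp53inp1 (NCBI gene 60599), a stress-induced nuclear protein that promotes p53 activity, was the most strongly counted of the set, with 2070 and 2188 expected counts in control, 5595 and 5245 in PQ, and 2512 and 1928 in NAC. The PQ libraries stood far above the other 4, and the NAC libraries lay on either side of control after scaling. Its log2 fold change was 1.31 in PQ (SE 0.10, edgeR adjusted p = 2.2e-07) and -0.04 in NAC (adjusted p = 0.83 by edgeR), where leaving out NAC replicate 1 gave -0.19, NAC replicate 2 0.10 and control replicate 2 -0.021. Aen (NCBI gene 68048), a nuclease that digests DNA during apoptosis, had 855 and 996 expected counts in control, 1736 and 1442 in PQ, and 851 and 873 in NAC. It followed Bax closely, with a log2 fold change of 0.74 in PQ (SE 0.10, edgeR adjusted p = 7.2e-05) and -0.20 in NAC (adjusted p = 0.21 by edgeR; -0.10 without control replicate 2). Ei24 (NCBI gene 13663), a membrane protein of the endoplasmic reticulum with a part in autophagy, had 1034 and 1082 expected counts in control, 1844 and 1520 in PQ, and 1375 and 1182 in NAC. Both NAC libraries of Ei24 were slightly above control after scaling, unlike those of Bax and Aen. Its log2 fold change was 0.63 in PQ (SE 0.10, edgeR adjusted p = 0.00022) and 0.18 in NAC (adjusted p = 0.24 by edgeR; 0.11 without NAC replicate 1).

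**Figure D2:**
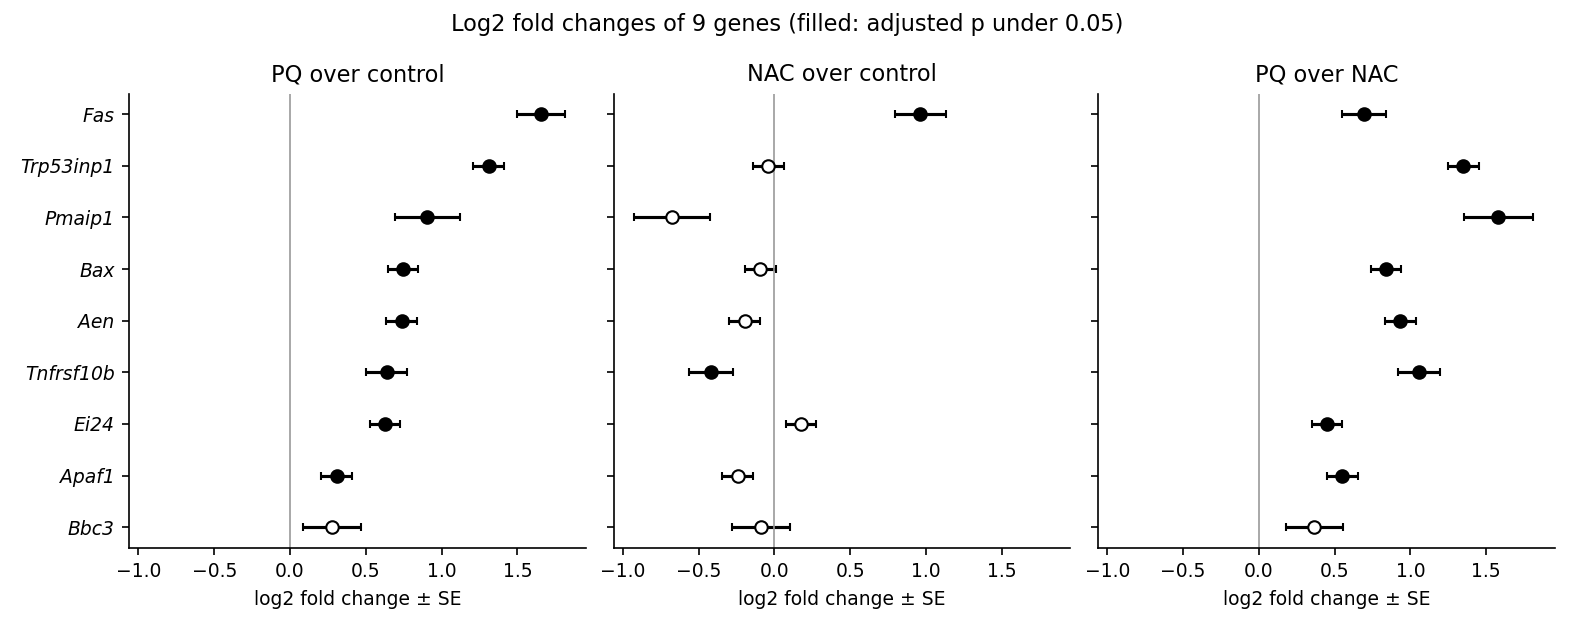
Log2 fold changes (x axis, with standard errors as bars) of the 9 tested genes (y axis) for PQ over control, NAC over control and PQ over NAC. Filled points passed an adjusted p under 0.05 by edgeR; 8 genes are filled in the first and last panels, and Fas and Tnfrsf10b in the middle one.

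With NAC, 1 of the 9 tested genes rose against control (Fas) and 1 fell (Tnfrsf10b), beside 9.01% of all tested genes called higher and 9.64% called lower. These shares of the 9 genes are near the background, and at an unadjusted p under 0.05 edgeR gave 1 higher and 3 lower, whereas DESeq2 and limma each called 1 higher and 0 lower. The median log2 fold change of the 9 genes was -0.09 in NAC, against -0.0018 over all tested genes. Fas and Ei24 had positive values, and the other 7 had negative ones from -0.67 for Pmaip1 to -0.04 for Trp53inp1. Both NAC libraries share the TRIzol and BGISEQ-500 protocol with 1 control library alone. Within that protocol (1 control, 1 PQ and 2 NAC libraries, an alternative added after the data were seen), Fas was again called higher in NAC and Tnfrsf10b was not called (adjusted p = 0.11 by edgeR), and the log2 fold change of Bbc3 was 0.18 in place of -0.09.

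Between the treatments, 8 of the 9 genes were higher in PQ than in NAC and 0 lower by edgeR, DESeq2 and limma alike (0 lower also at an unadjusted edgeR p under 0.05), beside 16.0% of all tested genes called higher and 15.7% called lower. Pmaip1 had the widest gap, with a log2 fold change of 1.58 (SE 0.23, edgeR adjusted p = 3.3e-05), a 2.99-fold difference. Trp53inp1 followed at 1.35 and Tnfrsf10b at 1.06, both with PQ above and, for Tnfrsf10b, NAC below control. The first place of Pmaip1 did not hold in every alternative. Its lowest value was 1.06, and that of Trp53inp1 was 1.21. Aen had 0.93, Bax 0.84, Fas 0.69, Apaf1 0.55 and Ei24 0.45 on the same scale, all called. Bbc3 had 0.37 (adjusted p = 0.15 by edgeR) and was called only without NAC replicate 2, at 0.64 (adjusted p = 0.049 by edgeR), while it was 0.13 without NAC replicate 1, 0.20 without PQ replicate 1 and 0.15 with the replicate block. The median over the 9 genes was 0.84, against 0.00036 over all tested genes. The 3 comparisons share libraries, so these values are not independent of those against control.

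Levels were compared between genes on the deposited FPKM scale, which corrects for transcript length. In control, Bax was highest at a mean of 89.8 FPKM, followed by Ei24 at 48.8, Trp53inp1 at 39.2 and Aen at 37.3. The libraries of Trp53inp1 and Aen overlapped, so their order is not resolved. A lower tier held Apaf1 at 9.26, Bbc3 at 8.65, Tnfrsf10b at 6.10 and Fas at 5.66 FPKM, of which Apaf1 overlapped Bbc3 and Tnfrsf10b overlapped Fas. Pmaip1 was lowest of the tested genes at 1.96 FPKM. With PQ, Trp53inp1 reached 98.9 FPKM and passed Ei24 at 77.0, while Bax remained highest at 153. Fas reached 18.2 FPKM and passed Apaf1 at 11.7, Bbc3 at 10.7 and Tnfrsf10b at 9.68. Pmaip1 was still the lowest with PQ, at 3.73 FPKM. In NAC, Fas at 11.6 FPKM also lay above Apaf1 at 8.08 and Tnfrsf10b at 4.71.

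**Figure D3:**
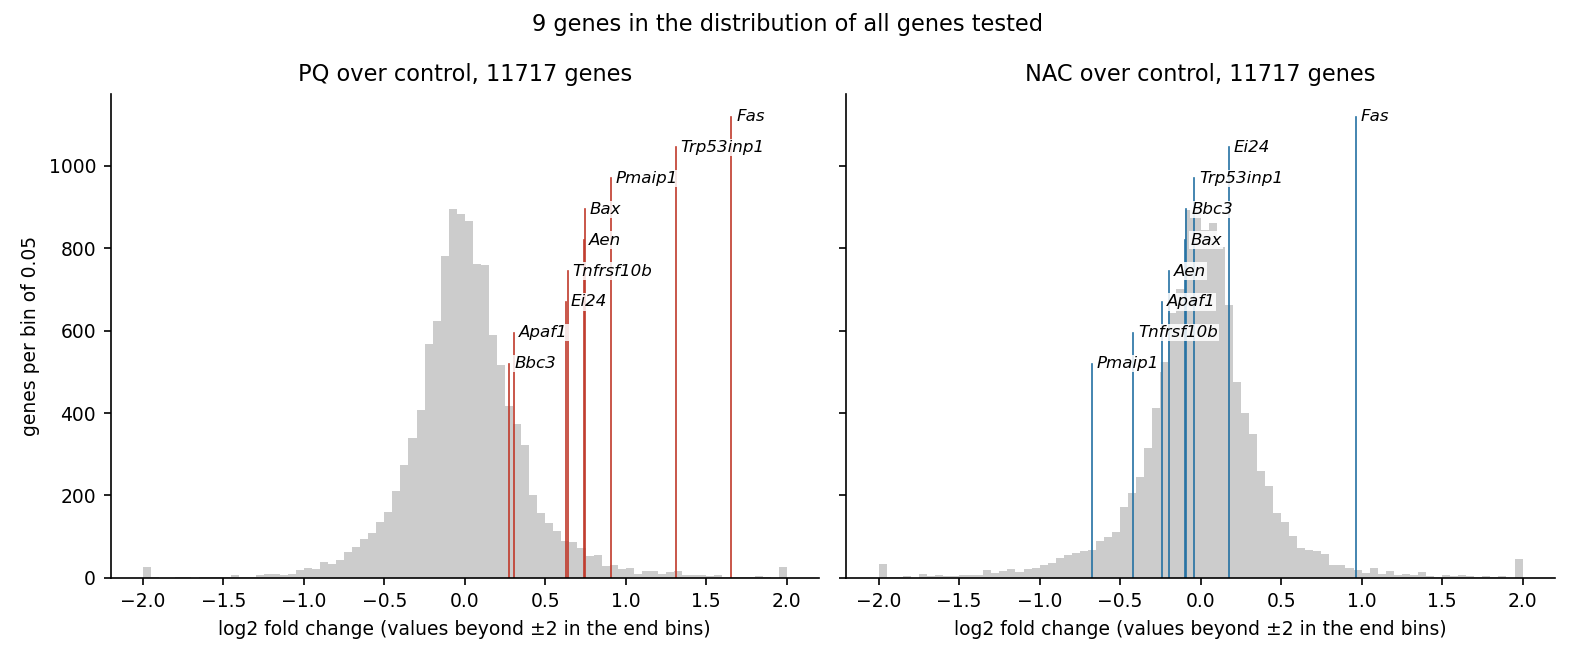
Distribution of log2 fold changes (x axis) over all 11717 tested genes, as genes per bin (y axis), for PQ over control and NAC over control. Vertical lines mark the 9 genes; with PQ all of them lie to the right of 0, from 0.28 for Bbc3 to 1.66 for Fas, and with NAC they lie on both sides, from -0.67 for Pmaip1 to 0.96 for Fas.

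Both labelled protocols gave the same direction with PQ. In the pair extracted on columns and in the pair extracted with TRIzol, each of 1 PQ and 1 control library, all 9 tested genes were higher in PQ, as were 50.2% of all tested genes in either pair. The median log2 difference of the 9 genes was 0.85 in the column pair and 0.58 in the TRIzol pair, against 0.0020 and 0.0011 over all tested genes. Trp53inp1 was nearly equal in both pairs, at 1.31 in each. Fas differed by 1.87 in the column pair and 1.47 in the TRIzol pair, Bax by 0.85 and 0.63, and Aen by 0.90 and 0.58. The difference was the larger in the column pair for 7 of the 9 genes, a count that includes the nearly equal Trp53inp1 (1.3101 and 1.3087). The exceptions were Bbc3 (0.19 and 0.38) and Pmaip1 (0.88 and 0.94). With 1 pair per protocol, the gap between protocols was not tested. Without PQ replicate 1, the column library, 5 of the genes and 866 genes overall were called in PQ against control, in place of 8 and 2250. The calls of Apaf1, Pmaip1 (adjusted p = 0.092 by edgeR) and Tnfrsf10b (adjusted p = 0.055 by edgeR) were then lost, and those of Fas, Trp53inp1, Bax, Aen and Ei24 held. The 4 TRIzol and BGISEQ-500 libraries alone also gave 5 calls.

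**Figure D4:**
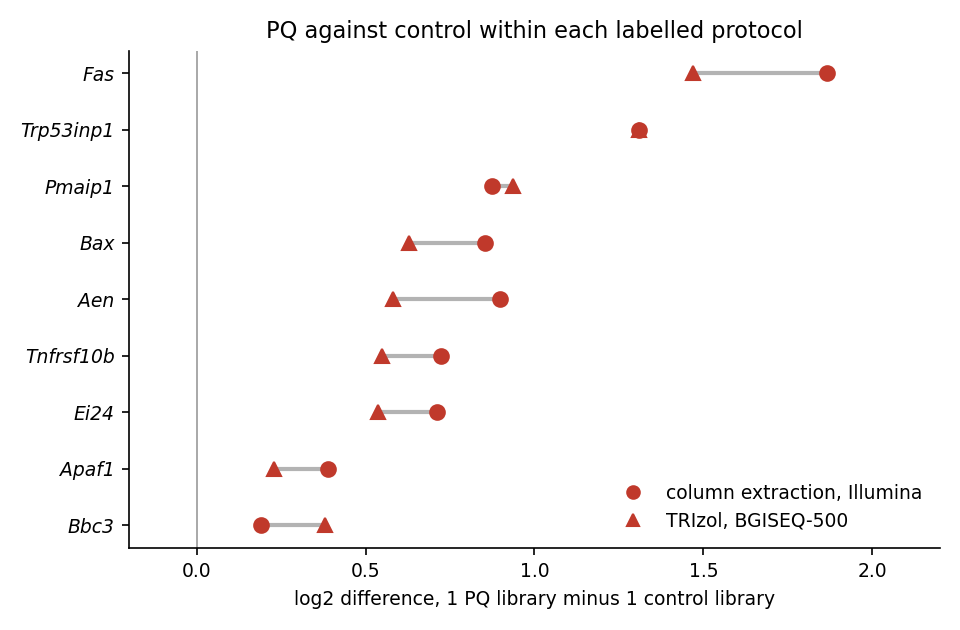
Log2 difference between 1 PQ and 1 control library (x axis) for each of the 9 tested genes (y axis), within the column-extracted Illumina pair (circles) and the TRIzol and BGISEQ-500 pair (triangles). All points lie above 0, and the circle lies to the right of the triangle for 7 of the 9 genes, among them Trp53inp1, which is nearly equal in both pairs.

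Sequence near the start sites of the genes was read because most of them rose together with PQ. RefSeq promoter windows on GRCm38.p6, each with 250 bases before and 50 after a transcription start, were found for 6 of the 10 genes in 9 windows: Bax, Bbc3 (3 windows), Fas, Aen (2 windows), Apaf1 and Ei24. No windows were used for Pmaip1, Tnfrsf10b, Perp and Trp53inp1. Each window was searched for the 10-base p53 half-site consensus, which reads the same on both strands, so 1 search covers both. Bax, Aen and Ei24 hold a match, and Bbc3, Fas and Apaf1 do not, although Fas had the largest rise. This is 3 of 6 genes, beside 9.6% of the 27025 genes with a window, and 4 of 9 windows, beside 8.36% of all 32851. The 2 Aen windows overlap and hold the same match, so the count of windows includes it in each. The matches are shown here in capitals, 5′ to 3′ on the strand of the gene. The Bax stretch lies at chr7:45467045-45467144 on the minus strand, before the start site, with the match from base -201 to -192. The Aen stretch lies at chr7:78895927-78895956 on the plus strand, with the match from base -121 to -112 of one annotated start and inside the first exon of an earlier one. The Ei24 stretch lies at chr9:36797335-36797434 on the minus strand and ends at the base before the start site, with the match from base -10 to -1.
Bax: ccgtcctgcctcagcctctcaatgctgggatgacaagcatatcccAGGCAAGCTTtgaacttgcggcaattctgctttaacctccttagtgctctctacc
Aen: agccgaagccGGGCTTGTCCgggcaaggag
Ei24: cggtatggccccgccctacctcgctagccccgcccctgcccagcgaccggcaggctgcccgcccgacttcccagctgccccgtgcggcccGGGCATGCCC
A match is a run of letters and not a measured binding site, and its absence says only that these letters are not in the window. The genes with a match (Bax, Aen and Ei24) had log2 fold changes in PQ of 0.74, 0.74 and 0.63. Those without one had 1.66 (Fas), 0.31 (Apaf1) and 0.28 (Bbc3). Outside the set, the p53 targets Cdkn1a (1 of 2 windows), Mdm2 and Ccng1 also hold a match, beside PQ values of 1.17, 0.66 and 1.33. Only these genes were read one by one outside the set, and each was called higher with PQ. Windows of other p53 targets, including those lowered by PQ, were not read in this way.

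The profiles over the 6 libraries were compared as log2 CPM centred on the control mean. Bax and Aen were the closest pair of the set, with a root-mean-square difference of 0.075 on the log2 scale. Fas was farthest from the median profile of the 9 genes, at 0.86, and was called higher with both treatments. Outside the set, the 5 genes nearest that median profile were Cdc34 at 0.049, Rtn4rl1 at 0.060, Gm10865 at 0.061, Orai2 at 0.062 and Psrc1 at 0.065. The median profile stood at 0.81 and 0.64 in the PQ libraries and at -0.20 and -0.13 in the NAC libraries.

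Other genes of the pathway give the setting of these values. Their lists were also chosen with earlier results known. Counts of calls in these lists stand beside 9.76% of all tested genes called higher and 9.45% lower with PQ. With NAC the shares were 9.01% and 9.64%. In lists this small, 1 call in a direction is near those shares. Of 8 core p53 genes, 3 rose with PQ and 0 fell by edgeR, DESeq2 and limma alike (0 fell also at an unadjusted edgeR p under 0.05): Ccng1 by 1.33, Cdkn1a, the inhibitor of cyclin-dependent kinases, by 1.17, and Mdm2 by 0.66 on the log2 scale. The same 3 genes fell with NAC, by 0.50, 0.98 and 0.45, whereas Trp53 itself rose in NAC by 0.32 (adjusted p = 0.034 by edgeR) and had 0.09 in PQ (adjusted p = 0.58 by edgeR), which was -0.040 without control replicate 1, 0.24 without control replicate 2 and 0.063 without PQ replicate 1. Fas and these 3 genes thus rose together with PQ but moved in opposite directions with NAC. Of 15 other tested p53 targets, 6 rose and 2 fell with PQ, and 0 rose and 7 fell with NAC by edgeR (1 and 8 at an unadjusted p under 0.05, 0 and 6 by DESeq2, 0 and 5 by limma). Btg2 (0.99), Pidd1 (0.80) and Steap3 (0.78) were raised by PQ, and the stress genes Ddit4 (-0.55) and Sesn2 (-0.50) lowered. Ddit4 (-1.53), Sesn2 (-1.35) and Steap3 (-0.90) were lowered by NAC. The call of Sesn2 in PQ was lost in 6 of 11 alternatives, that of Pidd1 in 3 and that of Ddit4 in 1, each without PQ replicate 1 among them (Sesn2 and Pidd1 also without control replicate 1, at -0.21 and 0.53, and Sesn2 without PQ replicate 2), and that of Trp53 in NAC in 6, among them without either NAC library or control replicate 1 (0.19). In the TRIzol and BGISEQ-500 libraries alone, Pidd1 (0.28), Sesn2 (-0.29) and Steap3 (0.51) in PQ and Trp53 (0.19) and Mdm2 in NAC were not called. The medians of these 2 lists were 0.20 and 0.17 in PQ and -0.34 and -0.25 in NAC. The core list also holds 5 genes not called with PQ, Trp53 and Cdkn2a among them, so its median does not describe its called targets.

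Partners of BAX and of the BH3-only proteins were read beside Bax and Pmaip1. Of 4 tested anti-death genes of the BCL-2 family, Bcl2l1 rose with PQ by 0.39 and Mcl1 by 0.36, and Bcl2 had -0.48 (adjusted p = 0.093 by edgeR). Bcl2 was called without control replicate 2 (-0.64) and with no filter, but had -0.31 without control replicate 1, -0.27 without PQ replicate 1 and -0.096 in the TRIzol and BGISEQ-500 libraries alone. With NAC, 0 of the 4 were called by edgeR, DESeq2 or limma, and 1 was higher at an unadjusted edgeR p under 0.05. Of 9 tested effectors and BH3-related genes outside the set, 3 rose and 1 fell with PQ, and 2 rose and 2 fell with NAC. The BH3-only genes Bmf (0.71), Bcl2l11 (0.51) and Bid (0.46) rose with PQ. Bmf also rose with NAC, by 1.50, and Bid by 0.38, whereas Bnip3 fell by 1.07 and Bnip3l fell by 0.49. Bak1, the effector that works beside BAX, had 0.23 in PQ (adjusted p = 0.10 by edgeR; 0.12 in the TRIzol and BGISEQ-500 libraries alone). The PQ call of Bmf was lost in 7 of 11 alternatives, that of Bcl2l11 in 4, those of Bid and Mcl1 in 3 each and that of Bcl2l1 in 2, each without PQ replicate 1 among them (Bid then at 0.29). Bmf, Bcl2l11 and Mcl1 were also lost without PQ replicate 2, Bmf and Bcl2l11 without control replicate 1, and Bmf, Bid and Mcl1 without control replicate 2. The NAC call of Bid was lost in 4, among them without control replicate 2 or either NAC library. The medians were 0.13 and 0.19 in PQ and 0.12 and 0.08 in NAC.

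Of 16 tested caspases and other apoptosis regulators, 1 rose and 1 fell with PQ, which does not exceed the background shares. With NAC, 2 rose and 1 fell. Casp12 rose by 0.81 in PQ and by 1.12 in NAC, and the caspase inhibitor Birc5 fell by 0.53 in PQ. Casp9, the direct partner of APAF1, had 0.32 in PQ (adjusted p = 0.14 by edgeR). With NAC, Casp2 rose by 0.58 and Casp6 fell by 0.47. Casp12 and Birc5 in PQ were not called in the TRIzol and BGISEQ-500 libraries alone, and Casp9 was called without control replicate 2, at 0.50, but had 0.15 without control replicate 1 and 0.18 in those libraries. The NAC call of Casp6 was lost in 6 of 11 alternatives, among them without either NAC library or control replicate 1, and that of Casp2 without NAC replicate 1. The list medians were -0.03 in PQ and -0.02 in NAC. Of 8 tested genes of the death receptor path, 2 rose and 1 fell with PQ and with NAC alike, with medians of 0.27 and -0.01. Tnfsf10, which encodes TRAIL, the ligand of TNFRSF10B, rose with PQ by 0.69, Tnfrsf1a rose by 0.38 and the adaptor Fadd fell by 0.39. With NAC, Tnfrsf21 rose by 1.41, Tnfrsf1a rose by 0.32 and Tnfrsf1b fell by 0.80. The PQ calls of Fadd, Tnfsf10 and Tnfrsf1a were lost in 6, 5 and 2 of 11 alternatives, each without PQ replicate 1 among them, with Fadd also lost without PQ replicate 2 or control replicate 2 and Tnfsf10 without control replicate 1 and in the TRIzol and BGISEQ-500 libraries alone (0.40). The NAC calls of Tnfrsf1a and Tnfrsf1b were lost in 3 each, among them without NAC replicate 1 or control replicate 2 (Tnfrsf1b at -0.48 and -0.47), and for Tnfrsf1a also without NAC replicate 2. Fasl, the ligand of FAS, had 2 expected counts in NAC replicate 2 and 0 in the other 5 libraries, so its transcript was at the limit of detection where Fas was raised.

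**Figure D5:**
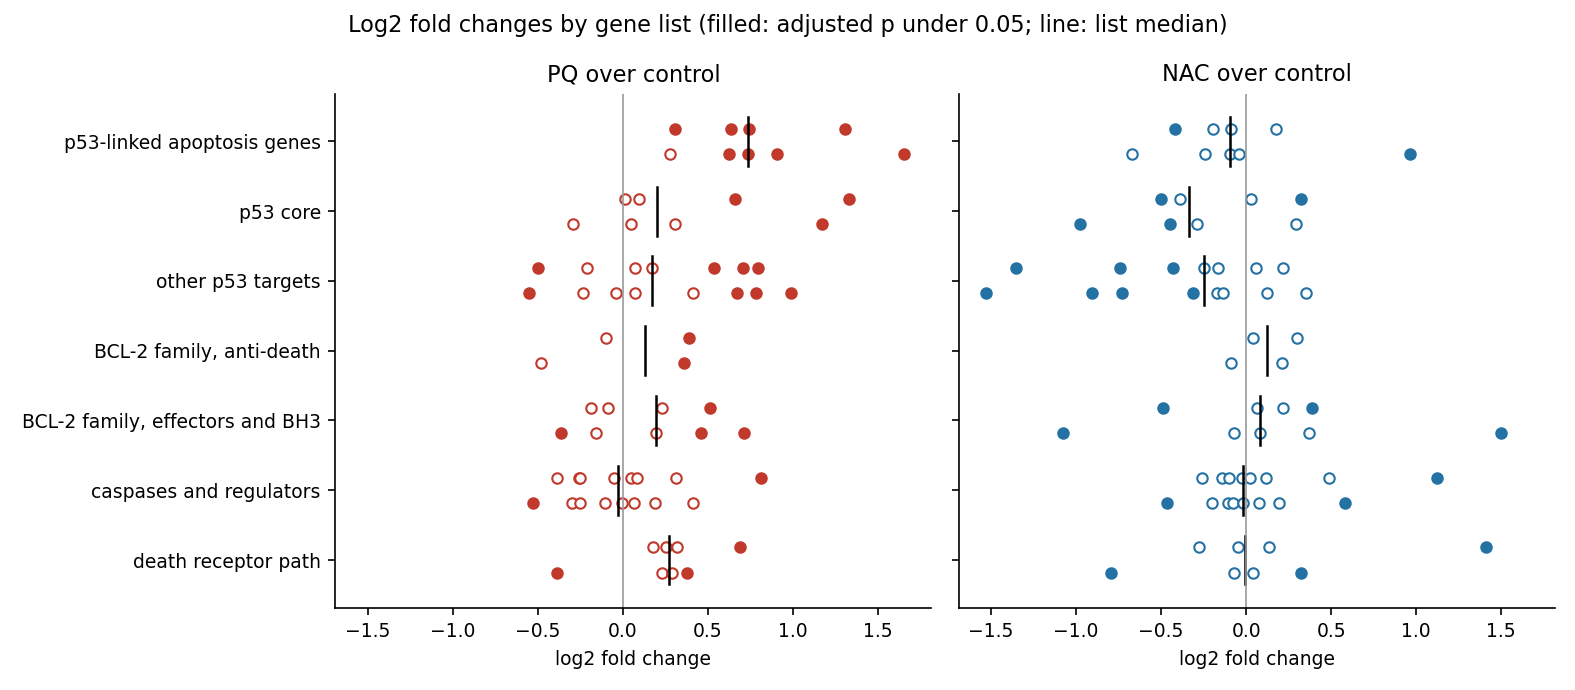
Log2 fold changes (x axis) for PQ over control and NAC over control of the tested genes in the 10-gene set and 6 other lists (y axis). Each point is 1 gene, filled where the adjusted p was under 0.05 by edgeR, and black lines are list medians. With PQ the median of the 9 genes is 0.74 and those of the other lists lie between -0.03 and 0.27. Some genes of the other lists lie above 0.74, among them Ccng1 (1.33), Cdkn1a (1.17) and Btg2 (0.99).

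Markers of the mixed culture were read beside these results. Of the progenitor markers, 1 rose (Nes, by 0.34) and 2 fell with PQ (Slc1a3 by 0.48 and Sox2 by 0.35 on the log2 scale), in the libraries in which the apoptosis genes rose. The calls of Nes and Sox2 were lost without either PQ library, that of Sox2 also without control replicate 1 (-0.23), and those of Nes, Sox2 and Slc1a3 in the TRIzol and BGISEQ-500 libraries alone (adjusted p = 0.155 for Slc1a3 by edgeR). Their summed level was 7367 and 7493 CPM in control, 7786 and 7897 in PQ, and 5767 and 5740 in NAC, led by Vim. With NAC, 1 of the progenitor markers rose and 3 fell by edgeR and DESeq2, whereas limma called 1 higher and 1 lower. Oligodendrocyte progenitor markers summed to 781 and 985 CPM in control, 1027 and 918 in PQ, and 1062 and 1278 in NAC, led by Olig1, with Sox10 at most at 3 counts everywhere. With PQ, 0 of 2 tested were called by edgeR, DESeq2 or limma or at an unadjusted edgeR p under 0.05. With NAC, 2 rose by edgeR and DESeq2 and 1 by limma. Cspg4, below the filter and not tested, was lower in both NAC libraries than in control. It had 73 and 75 expected counts in control, 78 and 75 in PQ, and 58 and 61 in NAC. Astrocyte markers summed to 424 and 407 CPM in control, 495 and 539 in PQ, and 333 and 325 in NAC, nearly all of it Gja1, so these sums follow that gene. With PQ, Aldh1l1 (1.17) and Gja1 (0.31) were called higher, and Gfap (-0.05), Aqp4 (-0.15) and S100b (0.65) were not called. With NAC, Gja1 was called lower (-0.43), and Gfap (1.23) and Aqp4 (1.76, from 0.745 FPKM in control) higher. Aldh1l1 (-0.49) and S100b (1.17, on 7 to 32 counts over the 6 libraries) were not called with NAC. The PQ call of Aldh1l1 was lost without PQ replicate 1 (0.93) and in the TRIzol and BGISEQ-500 libraries alone (0.80), and that of Gja1 without either PQ library or control replicate 2. Neuron markers summed to 211 and 200 CPM in control, 185 and 195 in PQ, and 362 and 323 in NAC, nearly all of it Map2, so the sums in NAC follow that gene. Tubb3, below the filter, went the other way, with 40.95 and 22.88 expected counts in control, 13 and 8 in PQ, and 6 and 7.67 in NAC. Syt1 had 8 and 11, 13 and 12, and 3 and 5 counts in the same order. Syp had 10 and 9, 12 and 5, and 11 and 23, without the fall in NAC seen for Tubb3 and Syt1. Snap25 had 4.97 and 8.2, 7.39 and 5.02, and 3.85 and 7.6. Dcx had 1.29 and 7.69, 3.97 and 2.95, and 3.08 and 2.22. All of these were below the filter, and the defining marker Rbfox3 had no counts. The part of these shifts in the values of the apoptosis genes was not tested. Markers of mature oligodendrocytes, microglia, endothelium and mesenchyme were low: they summed to at most 1.67, 11.5, 1.98 and 6.78 CPM in any library, led by Mbp, P2ry12, Pecam1 and Col1a1, and Mog, Mag, Mobp, Aif1, Csf1r, Ptprc, Cdh5, Cldn5, Kdr, Lum and Pdgfrb had at most 3 counts everywhere. In these 4 lists, P2ry12 alone passed the filter, with 30 to 97 counts, a level like that of Pmaip1, and Cx3cr1 had 19.83 to 33.94; P2ry12 was not called in PQ by edgeR, DESeq2 or limma and was called higher in NAC by all 3, though not without NAC replicate 1 (0.86).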

How the data were processed

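The authors deposited, for each of 6 libraries, expected counts and FPKM values under NCBI gene identifiers. The submitters' notes name TopHat2 2.0.11, Cufflinks 2.1.1 and mm9 for control replicate 1 and PQ replicate 1, and HISAT2 2.0.4, Bowtie2 2.2.5, RSEM and mm10 for the others, although all 6 tables have columns of the RSEM type. Whether strand was used in counting is not given in the sources used here, so genes that overlap are uncertain. Genes without a row were taken as 0. Symbols, found for 99.68% of 17254 genes, and promoter windows came from RefSeq tables of GRCm38.p6; no expression value depends on coordinates.

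Expected counts were rounded and tested with edgeR 4.0.16 in R 4.3.3 (TMM, glmQLFit and glmQLFTest, all 6 libraries, no covariates) on 11717 genes, with Benjamini-Hochberg adjustment over all of them. Standard errors were the absolute log2 fold change over the square root of F. The tests were checked on simulated counts. Alternatives were DESeq2 size factors, DESeq2 1.42.0, no filter, limma 3.58.1 on log2(FPKM + 1), the labelled protocol as a replicate block, only the 4 libraries compared and leaving out each library; the fit of the 4 TRIzol and BGISEQ-500 libraries alone was a later addition, made with the data in view. The labelled protocols each pair 1 control with 1 PQ library; across genes, the differences between protocols in control and in PQ correlated at -0.098.

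The members and lists were chosen with earlier results of these data known. Pathway genes named outside the set are up to 5 called genes per list by size, 9 core genes of the pathway whatever their values, and the 5 nearest in profile. The progenitor, astrocyte and neuron markers are all named whatever their values. Other named markers set a sum, were called, were scarce or fell below the filter. In the lists, 4 genes are not reported here, and all list counts, sums and medians leave them out.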

Additional observations from a re-analysis of the deposited data

Results flagged for a closer look

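The effect of PQ had opposite signs in the 2 labelled protocols for 0 of the 9 tested apoptosis genes and for 20 of the 78 tested genes of the other lists, marker lists included. Of these, 4 are pathway genes given with a fold change in the report. The log2 difference between 1 PQ and 1 control library was 0.27 in the column-extracted pair and -0.072 in the TRIzol pair for Trp53, -0.43 and 0.032 for Bnip3, -0.21 and 0.028 for Bnip3l, and -0.043 and 0.15 for Casp6. With 1 pair per protocol, these differences between protocols were not tested.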

How the results depend on the processing

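Over 11 alternatives, the log2 fold changes of the 9 tested genes kept their sign and their side of the threshold in 88 of 99 fits for PQ over control, 98 of 99 for PQ over NAC and 84 of 99 for NAC over control. In PQ over control the other 11 kept their sign and lost the call (Apaf1 in 7, Pmaip1 and Tnfrsf10b in 2 each). The number of the 9 genes called was 8, and from 5 to 8 when a library was left out, against 2250 genes overall and from 866 to 2206. With only the 4 TRIzol and BGISEQ-500 libraries it was 5, against 993. In NAC over control the number was 2, 3 with no filter on low values, and 1 by DESeq2, by limma on log2(FPKM + 1), with the replicate block by labelled protocol, with only the 4 libraries compared, with the TRIzol and BGISEQ-500 libraries alone and in each fit that left out a library (from 1 to 1); genes overall numbered 2186, and from 1286 to 2126 without a library. In PQ over NAC it was 8, and from 8 to 9, against 3708 genes overall and from 2343 to 2769. The sign of Bbc3 in NAC over control, -0.09, turned to 0.13 with the replicate block, 0.18 without control replicate 1 (lowest -0.36, without NAC replicate 2), 0.15 without NAC replicate 1 and 0.18 in the TRIzol and BGISEQ-500 libraries, and that of Trp53inp1, -0.04, to 0.10 without NAC replicate 2 (lowest -0.19, without NAC replicate 1); none of these was called. Of the other named genes in PQ over control, Trp53, at 0.095, turned to -0.040 without control replicate 1 (highest 0.24, without control replicate 2) and to -0.071 in the TRIzol and BGISEQ-500 libraries, not called in either; 58 of the 308 fits of these genes lost a call and 3 gained one, as did 25 and 0 of 242 in NAC over control. The cause was not tested, except that leaving out libraries leaves fewer samples, and a group with 1 library was assumed to vary like the others. The replicate block changed the calls of Apaf1 in PQ and Tnfrsf10b in NAC and no other call of the 9 genes. Depth limits Perp, and Pmaip1 rests on 32 to 112 counts.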
